A study of Mus musculus with 30 samples.

Results

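MC38 tumours without functional Jak1 were compared with wild-type MC38 tumours, both grown in mice treated with an antibody that blocks PD-1, an inhibitory receptor of T cells. The comparison uses the 5 libraries of Jak1 knockout tumours under that antibody (Jak1KO aPD1) and the 5 libraries of wild-type tumours under it (WT aPD1), 10 of the 30 libraries of the series, chosen by their labels. MC38 is a mouse colon carcinoma line. The cells were injected under the skin of female C57BL/6 mice aged 6 to 8 weeks. The Jak1KO cells carried loss-of-function mutations in Jak1, and the WT cells carried neither these nor the B2m mutations of the third line of the series (B2mKO). Both groups received 100 µg of aPD1 into a vein on days 7, 10 and 13, and about 50 mg of tumour was taken on day 14. Tumours of the same lines under the isotype control IgG1 (Jak1KO IgG1 and WT IgG1, 5 libraries each) and B2mKO tumours under aPD1 (5 libraries) are used beside the main comparison.

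Jak1 is a kinase bound to the receptors of interferons and of many cytokines of the interleukin-2, interleukin-6 and interleukin-10 families. After a ligand binds, Jak1 and its partner kinase phosphorylate the receptor and STAT factors, which enter the nucleus. Interferon gamma acts through paired STAT factors that bind gamma activated sites, and type I interferons act through a complex with STAT2 and IRF9 that binds interferon stimulated response elements. Interferon gamma from T cells raises antigen presentation on tumour cells, and loss of JAK1 in tumour cells is a known route of resistance to PD-1 blockade.

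The samples are pieces of whole tumours, so host cells with intact Jak1 are part of every library, and fewer cells of a type cannot be told apart from less RNA per cell. The labels do not say whether the Jak1KO line is 1 clone, so what the line carried besides the Jak1 mutation and the loss of Jak1 itself cannot be told apart. They also do not say that each library came from its own mouse, and p-values then measure the spread between these samples. Total counts per library ran from 19987329 to 23090261 in the Jak1KO aPD1 group and from 17983200 to 25658875 in the WT aPD1 group. Of the markers of colon epithelium, Cdx2 had 0 counts in the 10 libraries and Krt20 had 7, Epcam did not exceed 1.32 CPM in any, and the mesenchymal gene Vim was at 2673 to 3873 CPM. Other epithelial genes were at low levels, Cdh1 at 1.55 to 15.0 CPM, Krt8 at up to 4.15 CPM and Krt19 at up to 6.62 CPM. Levels are in CPM, read counts scaled by edgeR to the size of the library, and differences are log2 fold changes ± SE of Jak1KO against WT from a quasi-likelihood test in edgeR, with p-values adjusted by Benjamini-Hochberg over all 15505 genes tested. A gene is called where the adjusted p is under 0.05.

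Jak1 (ENSMUSG00000028530, chromosome 4, 101152367 to 101265282, GRCm38) was low in every Jak1KO library. Its level was 236, 238, 233, 249 and 239 CPM in the 5 WT libraries and 81.9, 72.6, 66.5, 64.9 and 76.3 CPM in the 5 Jak1KO libraries, so the groups did not overlap. The difference was -1.72 ± 0.10 (edgeR adjusted p = 1.85e-12), and the exact two-sided permutation p of log2 CPM was 0.00794, the smallest that 5 against 5 libraries allow. The level left was 30.3% of WT. The labels do not give the mutated site, and host cells carry the intact gene.

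In all, 3106 genes were called between Jak1KO and WT tumours under aPD1, 20.0% of the genes tested. Of these, 1856 were lower in Jak1KO (12.0%) and 1250 were higher (8.06%). The falls were larger than the rises: 777 genes fell by over 1 on the log2 scale and 257 by over 2, while 222 rose by over 1 and 46 by over 2. The median over all genes was 0.02. With the 2 groups fitted alone 4752 genes were called, and without a WT IgG1 and a B2mKO aPD1 library that stand apart from the rest, which enter the estimate of the spread, 5178. Among the genes that fell were most of the listed targets of interferon gamma and of type I interferon. Most listed MHC class I and class II genes and their accessory genes fell too, as did several receptors and factors of the JAK-STAT pathway itself. The genes that rose included elastic fibre genes, the laminin gene Lama2 and a few macrophage genes.

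**Figure D1:**
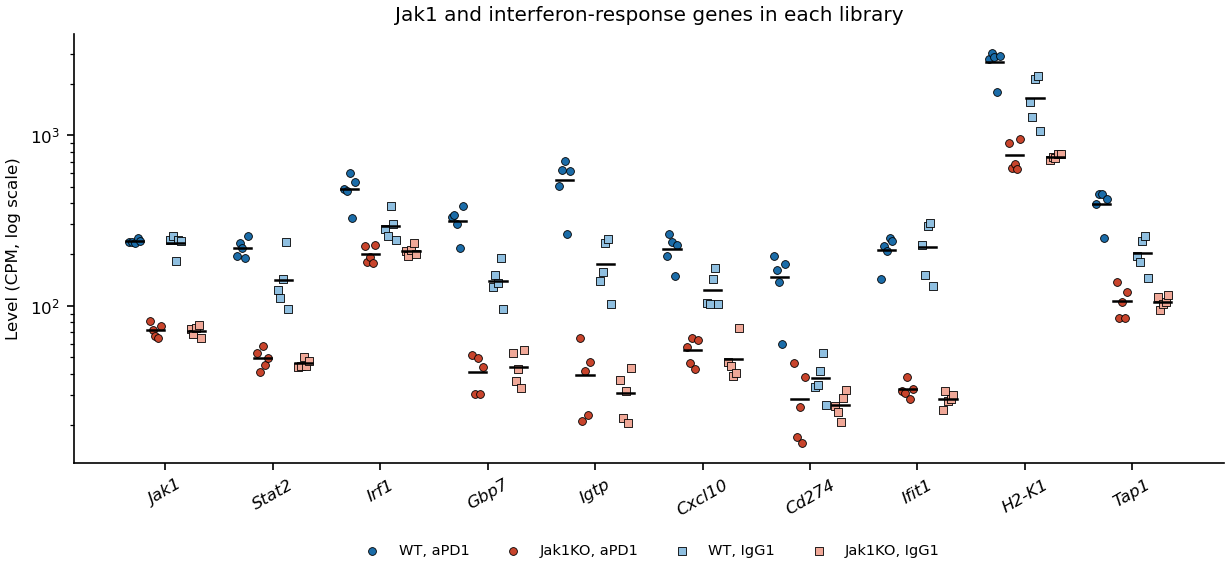
Level in CPM on a log axis for Jak1 and 9 interferon-response genes in each library. Points are libraries, circles under aPD1 and squares under IgG1, and short bars are group means. For Gbp7 the 5 WT aPD1 libraries lay at 219 to 384 CPM and the 5 Jak1KO aPD1 libraries at 30.2 to 51.3 CPM.

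RNA of the receptors that bring interferon to Jak1 was present in tumours of both lines, host cells included. Ifngr1, which binds interferon gamma, was at 97.6 ± 14.7 CPM (SD, n = 5) in WT and 95.0 ± 9.04 CPM in Jak1KO tumours (-0.04 ± 0.14, edgeR adjusted p = 0.881). Its partner chain Ifngr2 had a difference of -0.22 ± 0.12 (edgeR adjusted p = 0.223), and it was called when the 2 groups were fitted alone. The type I receptor chain Ifnar1 was at 101 and 103 CPM (0.04 ± 0.07, edgeR adjusted p = 0.77), and Ifnar2 fell by a small amount (-0.34 ± 0.08, edgeR adjusted p = 0.00314). The other kinases that pair with Jak1 were not called: Jak2 differed by -0.14 ± 0.11 (edgeR adjusted p = 0.392) and Tyk2 (-0.21 ± 0.15, edgeR adjusted p = 0.362).

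Downstream of the receptors, 6 of 21 tested JAK, STAT and SOCS genes fell and 0 rose, with a list median of -0.21. The 6 include Jak1 itself, the mutated gene. Stat2, which acts in the type I complex, was at 196, 233, 218, 191 and 255 CPM in the WT libraries, against 52.5, 41.1, 58.3, 44.9 and 49.2 CPM in the Jak1KO libraries. Every WT library lay above every Jak1KO library. The fall of Stat2 (-2.15 ± 0.20, edgeR adjusted p = 4.23e-09) was larger as estimated than that of Stat3, the main factor of interleukin-6 signalling (-0.97 ± 0.14, edgeR adjusted p = 9.81e-06). Both feedback inhibitors named by the rule also fell, Socs1 (-1.54 ± 0.19, edgeR adjusted p = 8.48e-07) and Socs3 (-1.36 ± 0.18, edgeR adjusted p = 3.47e-06).

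Interferon regulatory factors followed: 9 of 11 fell and 1, Irf3, rose (0.23 ± 0.08, edgeR adjusted p = 0.0495), beside 12.0% of all genes that fell. The call of Irf3 was lost under many of the alternatives (adjusted p 0.0525 to 0.188). Irf9, the DNA-binding part of the type I complex, went from 71.0 ± 10.8 CPM in WT to 18.4 ± 1.80 CPM in Jak1KO tumours (-1.95 ± 0.17, edgeR adjusted p = 3.07e-09). Irf1, an early interferon gamma target, was at 481, 469, 600.2, 329 and 531 CPM in WT, against 224, 182, 194, 179 and 226 CPM in Jak1KO libraries, with no overlap (-1.26 ± 0.14, edgeR adjusted p = 1.36e-07). Nlrc5, the transactivator of MHC class I genes, fell by more (-2.30 ± 0.29, edgeR adjusted p = 1.19e-06). Ciita, the transactivator of MHC class II genes, varied widely between libraries (45.9 ± 28.1 against 10.2 ± 10.9 CPM). Its difference of -2.17 ± 0.67 (edgeR adjusted p = 0.0211) lost its call when any 1 of 4 libraries was left out (Jak1KO replicates 2, 3 or 4, or WT replicate 2; adjusted p 0.0551 to 0.0723).

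On the list of receptors that signal through Jak1, which takes in interferon receptors, 12 of 23 fell and 0 rose, with a median of -0.55. Il15ra, which presents interleukin-15, fell by 1.34 ± 0.12 (edgeR adjusted p = 5.94e-09), and Osmr, the oncostatin M receptor (-1.41 ± 0.19, edgeR adjusted p = 3.38e-06). Il7r, the interleukin-7 receptor chain, was at 17.0 to 61.1 CPM in WT, against 2.94 to 10.7 CPM in Jak1KO libraries (-2.82 ± 0.40, edgeR adjusted p = 8.19e-06). The shared gamma chain Il2rg fell by 1.48 ± 0.23 (edgeR adjusted p = 2.06e-05). Of 12 tested cytokines and interferons of these families, 5 fell and 0 rose, among them Il7 (-2.46 ± 0.43, edgeR adjusted p = 0.000134), Il15 (-1.42 ± 0.34, edgeR adjusted p = 0.00288) and Lif (-1.52 ± 0.32, edgeR adjusted p = 0.000996). Ifng itself, the gene of interferon gamma, was at 4.91, 5.15, 5.43, 0.753 and 3.43 CPM in WT, against 3.21, 0.148, 0.920, 0.0484 and 1.87 CPM in Jak1KO libraries. The groups overlapped and the difference was not called (-1.65 ± 0.67, edgeR adjusted p = 0.0848), but it passed without Jak1KO replicate 1 (adjusted p = 0.0197), without WT replicate 4 (0.0412) and with limma voom (0.0211).

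The guanylate-binding proteins (GBPs), large GTPases that attack vacuoles of pathogens, were called lower in 11 of 11 cases. Their median was -2.94, and the libraries of 10 of the 11 did not overlap between the groups, which holds for 10.3% of all genes in that direction. Gbp7, the GBP with the smallest p, was at 333, 339, 303, 219 and 384 CPM in WT, against 51.3, 30.2, 49.5, 30.4 and 43.9 CPM in Jak1KO libraries, a difference of -2.94 ± 0.20 (edgeR adjusted p = 2.81e-11). Gbp3 fell by 3.50 ± 0.28 (edgeR adjusted p = 3.9e-10) and Gbp4 (-2.98 ± 0.26, edgeR adjusted p = 2.15e-09). Gbp10 went from 25.4 ± 10.5 CPM to 1.00 ± 0.756 CPM (-4.64 ± 0.50, edgeR adjusted p = 8.76e-08). GBP genes are close copies of each other, and reads that fit several copies were left out of the counts, so the single values are uncertain.

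The immunity-related GTPases, a second family of interferon-induced GTPases, also fell in 10 of 10 cases, with a median of -3.22 and no overlap in any of them. Igtp was at 506, 627, 702, 264 and 617 CPM in WT, against 64.9, 21.2, 41.3, 22.8 and 46.9 CPM in Jak1KO libraries (-3.78 ± 0.32, edgeR adjusted p = 9.62e-10). WT replicate 4 was the lowest of its group, and it lay above every Jak1KO library. Irgm1 fell by 2.17 ± 0.17 (edgeR adjusted p = 3.53e-10), Irgm2 (-3.40 ± 0.27, edgeR adjusted p = 3.9e-10) and Tgtp2 (-3.03 ± 0.31, edgeR adjusted p = 4.09e-08). Tgtp1 (-4.36 ± 0.47, edgeR adjusted p = 7.72e-08) and Tgtp2 are near-identical copies and cannot be told apart with certainty.

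Promoter sequence is shown for the 4 genes of the interferon lists with the smallest p whose window, from 250 bases before to 50 after the start in the RefSeq table (GRCm38.p6), held a motif. Capitals mark each match to the gamma activated site (TTC, any 3 bases, GAA), which reads the same on both strands, or to the response element (GAAA, any 2 bases, GAAA) on either strand. The stretches run 5′ to 3′ on the gene's strand, from 25 bases before the first match to 25 after the last. They lie at chr3:142530205-142530317 (plus strand), chr11:48871421-48871475 (minus strand), chr11:58214877-58214947 (plus strand) and chr3:142559974-142560039 (plus strand).
Gbp7: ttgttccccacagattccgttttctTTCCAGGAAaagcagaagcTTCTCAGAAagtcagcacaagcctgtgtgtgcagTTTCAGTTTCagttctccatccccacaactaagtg
Irgm1: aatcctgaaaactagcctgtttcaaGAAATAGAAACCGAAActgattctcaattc
Irgm2: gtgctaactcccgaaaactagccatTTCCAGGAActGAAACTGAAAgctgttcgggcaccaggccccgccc
Gbp3: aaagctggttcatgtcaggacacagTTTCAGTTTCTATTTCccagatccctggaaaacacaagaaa

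Gbp7 held 2 gamma activated sites and 1 response element between 106 and 44 bases before its start. Irgm2 held 1 of each, and Irgm1 and Gbp3 held 2 overlapping response elements each. Over all 11025 genes tested that had a promoter in the table, 4.0% held the response element, against 9.0% of the 1370 called lower, 14.6% of the 527 that fell by over 1 on the log2 scale and 3.5% of the 959 called higher. The gamma activated site was in 8.3% of all these genes, 9.9% of those lower, 12.5% of those that fell by over 1 and 8.0% of those higher. Of 56 interferon-list genes called lower with a promoter, 31 held the response element and 16 the gamma activated site. A match is a match of letters only, and the genes had 1.27 windows each on average.

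Other targets of interferon gamma fell in 28 of 33 cases, and 33 of 33 had a negative difference. Casp1, the caspase that matures interleukin-1, was at 132 ± 17.1 CPM in WT, against 21.5 ± 4.65 CPM in Jak1KO tumours (-2.62 ± 0.20, edgeR adjusted p = 2.97e-10), and Casp4 fell by 1.76 ± 0.18 (edgeR adjusted p = 4.43e-08). Cxcl10, a chemokine that draws T cells, was at 195, 263, 236, 150.2 and 227 CPM in WT, against 57.7, 46.5, 64.5, 42.7 and 63.2 CPM in Jak1KO libraries (-1.96 ± 0.20, edgeR adjusted p = 2.61e-08). Vcam1, an adhesion molecule, fell by 1.13 ± 0.12 (edgeR adjusted p = 8.95e-08). Ido1, which breaks down tryptophan, was at 3.24 ± 1.36 CPM in WT, against 0.112 ± 0.112 CPM in Jak1KO tumours (-4.73 ± 0.58, edgeR adjusted p = 8.23e-07).

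Cd274 encodes PD-L1, the ligand of the receptor that the antibody blocks. It was at 197, 161, 139, 59.4 and 177 CPM in the WT libraries, against 46.2, 17.1, 25.4, 15.7 and 38.0 CPM in the Jak1KO libraries. All WT libraries lay above all Jak1KO libraries, with WT replicate 4 the nearest. The difference was -2.36 ± 0.30 (edgeR adjusted p = 9.56e-07). The second PD-1 ligand, Pdcd1lg2, fell by 2.60 ± 0.55 (edgeR adjusted p = 0.00108). Of 23 tested checkpoint and exhaustion genes, 11 fell and 0 rose (median -0.87), among them the costimulatory ligands Cd86 (-1.87 ± 0.34, edgeR adjusted p = 0.000207) and Cd80 (-1.19 ± 0.24, edgeR adjusted p = 0.000521). Cd200, an inhibitory ligand, fell by 1.04 ± 0.18 (edgeR adjusted p = 0.000118). Pdcd1, the gene of PD-1, was not called (-0.50 ± 0.53, edgeR adjusted p = 0.567).

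Type I interferon-stimulated genes fell in 34 of 37 cases, with a median of -1.55, 37 negative differences and no overlap of the libraries in 34. Ifit1, which binds foreign RNA, was at 143, 225, 209, 250.2 and 238 CPM in WT, against 31.6, 30.9, 38.1, 28.4 and 32.7 CPM in Jak1KO libraries (-2.72 ± 0.23, edgeR adjusted p = 1.02e-09). The Jak1KO libraries lay close together and far below the WT libraries. Zbp1, a sensor of Z-form nucleic acid, fell by 2.44 ± 0.22 (edgeR adjusted p = 4.96e-09), Ifi44 (-3.39 ± 0.31, edgeR adjusted p = 5.82e-09) and Xaf1 (-1.59 ± 0.15, edgeR adjusted p = 1.09e-08). The ubiquitin-like Isg15 fell by 2.06 ± 0.26 (edgeR adjusted p = 9.47e-07). This list, those of GBPs and GTPases and the other gene lists were assembled with earlier results of these data known, so their counts are a description.

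**Figure D2:**
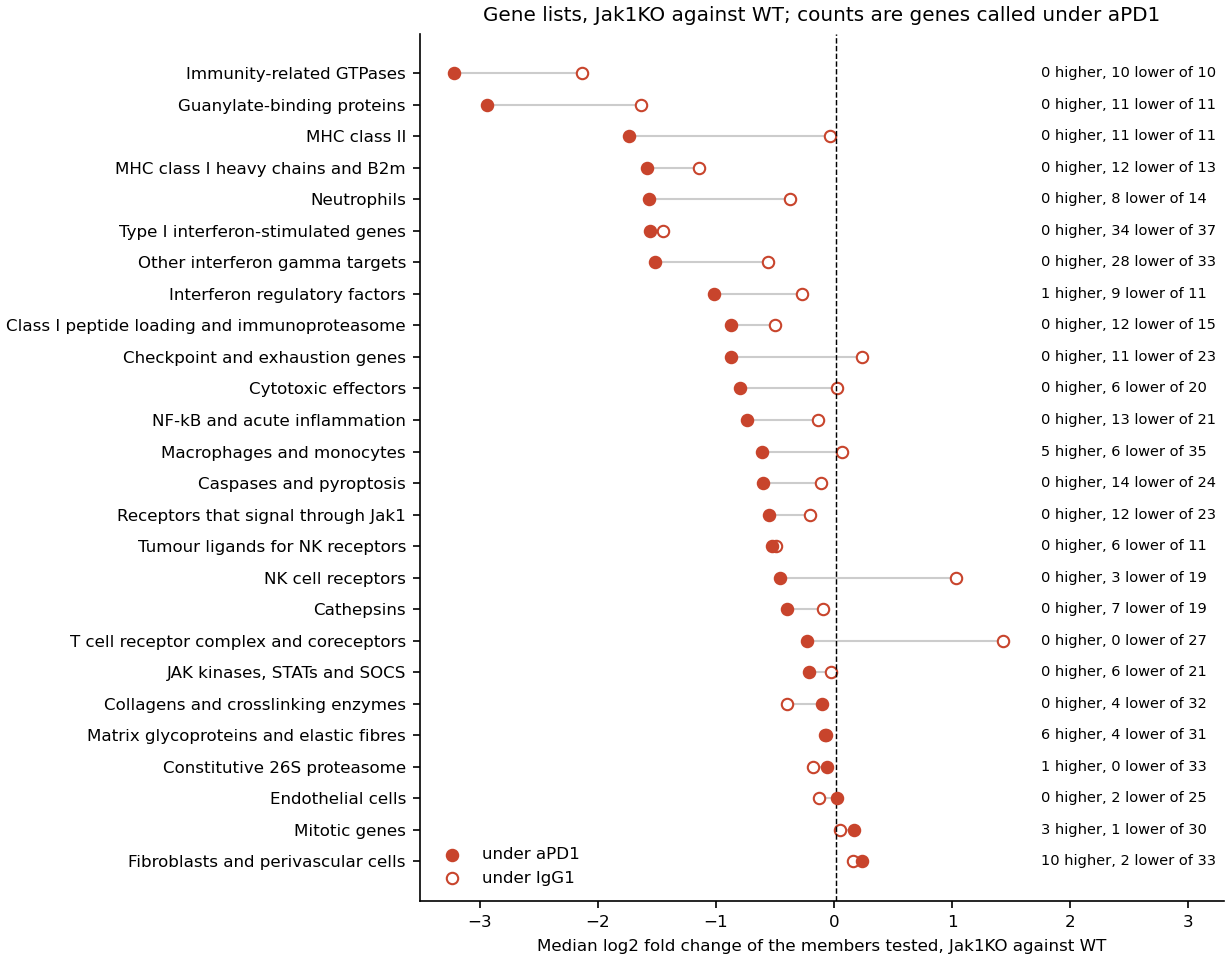
Median log2 fold change of Jak1KO against WT over the tested members of 26 gene lists, filled under aPD1 and open under IgG1. The dashed line is the median of all genes under aPD1, 0.02, and the counts at the right are members called under aPD1. Of the lists drawn, the GTPase lists lie lowest in both arms, and MHC class II is low under aPD1 (-1.73) and near 0 under IgG1 (-0.04).

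MHC class I genes fell in 12 of 13 cases (median -1.58). H2-K1, a classical heavy chain, was at 2811, 3022, 2884, 1794 and 2896 CPM in WT, against 904, 640.0, 680.3, 631 and 947 CPM in Jak1KO libraries (-1.82 ± 0.18, edgeR adjusted p = 2.85e-08), and the other classical chain, H2-D1, fell by 1.56 ± 0.20 (edgeR adjusted p = 1.49e-06). The non-classical chains H2-Q6 (-3.16 ± 0.23, edgeR adjusted p = 7.61e-11) and H2-Q7 (-2.84 ± 0.23, edgeR adjusted p = 3.9e-10) fell by more, though the H2-Q genes share much sequence. B2m, the light chain of all of them, was at 4266, 4475, 5459, 3584 and 5079 CPM in WT, against 1393, 1183, 1031, 933 and 1708 CPM in Jak1KO libraries, 27.3% of WT on average. Its difference was -1.87 ± 0.19 (edgeR adjusted p = 3.44e-08), with an exact two-sided permutation p of 0.00794.

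The machinery that loads class I fell with it, 12 of 15 with 0 higher (median -0.87). The peptide pump subunit Tap1 was at 394, 450.2, 455, 251 and 425 CPM in WT, against 137, 85.3, 105, 84.3 and 121 CPM in Jak1KO libraries (-1.89 ± 0.16, edgeR adjusted p = 1.1e-09), and Tap2 fell by 0.87 ± 0.11 (edgeR adjusted p = 7.04e-07). The 3 immunoproteasome subunits fell, Psmb9 (-2.24 ± 0.28, edgeR adjusted p = 1.09e-06) by more than Psmb8 (-1.17 ± 0.18, edgeR adjusted p = 1.51e-05) and Psmb10 (-0.66 ± 0.16, edgeR adjusted p = 0.00437) as estimated. The chaperone Tapbp fell by 0.92 ± 0.13 (edgeR adjusted p = 4.59e-06). By contrast, of 33 constitutive proteasome genes 0 fell and 1 rose, Psmd2 (0.23 ± 0.08, edgeR adjusted p = 0.0296), with a median of -0.06. Psmd2 lost its call without any 1 of 5 libraries (Jak1KO replicates 3, 4 or 5, WT replicates 4 or 5) and with no filter on low counts.

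MHC class II genes and their partners, which present antigen to CD4 T cells and are carried by macrophages, dendritic cells and B cells, fell in 11 of 11 cases (median -1.73). The sum over the list was 6627, 9844, 7155, 1497 and 6506 CPM in WT, against 3408, 465, 829.7, 569 and 2071 CPM in Jak1KO libraries. The groups overlapped: WT replicate 4 lay below Jak1KO replicates 1 and 5, which stood above the other 3 Jak1KO libraries. The invariant chain Cd74 fell by 2.55 ± 0.74 (edgeR adjusted p = 0.0144), the heavy chain gene H2-Aa (-2.45 ± 0.81, edgeR adjusted p = 0.0314) and the peptide editor H2-DMb1 (-1.73 ± 0.40, edgeR adjusted p = 0.00217). The count of 11 fell to 5 without WT replicate 2, without Jak1KO replicate 2 or without Jak1KO replicate 4, and to 6 without Jak1KO replicate 3. Under IgG1, 0 of 11 were called (median -0.04).

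T cell genes did not separate the groups. Of 27 tested members of the T cell receptor complex and its coreceptors, 0 were called under aPD1 (median -0.23), 24 with a negative difference. The list sum was 85.5, 135, 73.2, 32.4 and 65.0 CPM in WT, against 118, 23.1, 43.3, 25.3 and 101 CPM in Jak1KO libraries. The same libraries stood out as for MHC class II: Jak1KO replicates 1 and 5 were high and WT replicate 4 was low. Cd8a, the coreceptor of cytotoxic T cells, was at 5.79, 13.6, 5.16, 2.12 and 4.45 CPM in WT, against 14.0, 0.396, 2.24, 1.07 and 11.6 CPM in Jak1KO libraries (-0.08 ± 0.75, edgeR adjusted p = 0.961). Without Jak1KO replicate 1, 2 of the 27 passed as lower, among them Icos (-1.08 ± 0.53, edgeR adjusted p = 0.161 with all libraries), and without WT replicate 4, 1 did. The count of MHC class II genes called stayed at 11 without Jak1KO replicate 1, without Jak1KO replicate 5 and without WT replicate 4, each left out in turn.

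**Figure D3:**
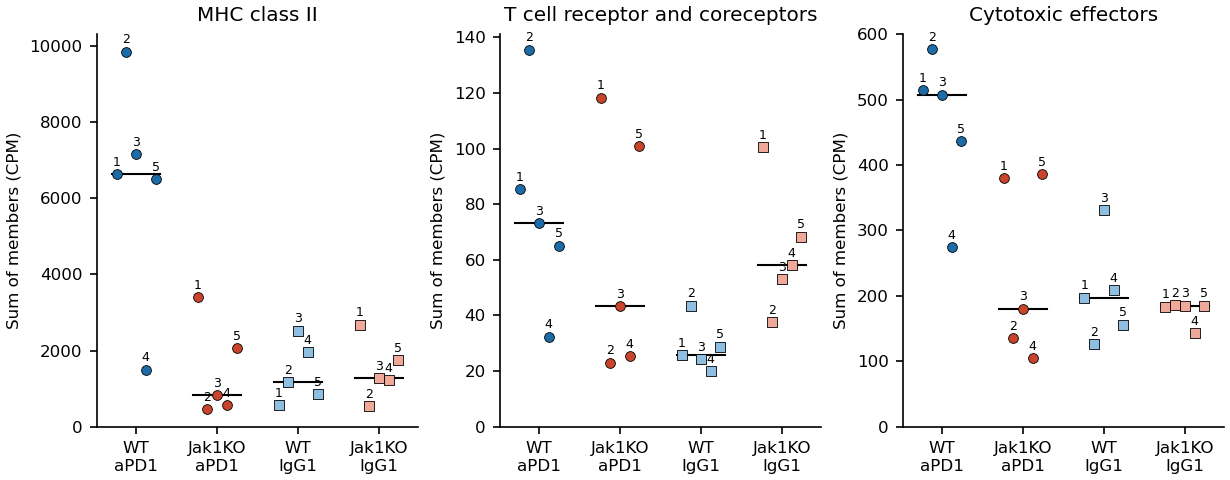
Sum in CPM of the tested members of 3 lists in each library, with replicate numbers beside the points and bars at the group medians. Under aPD1, Jak1KO replicates 1 and 5 stand above the other Jak1KO libraries in each list, and WT replicate 4 is the lowest WT library in each.

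Genes of cytotoxic cells fell in 6 of 20 cases and rose in 0 (median -0.80), with list sums of 274 to 577 CPM in WT, against 105 to 386 CPM in Jak1KO libraries. Ccl5, a chemokine of activated T and NK cells, fell by 1.61 ± 0.33 (edgeR adjusted p = 0.000691), the activating receptor Klrk1 (-1.60 ± 0.47, edgeR adjusted p = 0.0163) and the granzyme Gzma (-1.98 ± 0.59, edgeR adjusted p = 0.0173). The count was 2 without WT replicate 2, Jak1KO replicate 2 or Jak1KO replicate 4. Gzmb (-1.32 ± 0.59, edgeR adjusted p = 0.117) and Prf1 (-0.78 ± 0.55, edgeR adjusted p = 0.347), the main granzyme and the pore protein, were not called, though Gzmb passed without Jak1KO replicate 1 (adjusted p = 0.0221) and with limma voom (0.0317). Of 19 tested genes on the NK cell receptor list 3 fell and 0 rose, beside 12.0% of all genes that fell. They were the receptors Cd244a (-1.35 ± 0.31, edgeR adjusted p = 0.00211) and Klrb1b (-2.34 ± 0.58, edgeR adjusted p = 0.00436), and Gzma, the granzyme already counted among the cytotoxic genes. On the side of the ligands that NK receptors see, 6 of 11 fell and 0 rose. Raet1e, a ligand of the Klrk1 receptor, was at 5.46, 6.43, 9.55, 6.36 and 8.54 CPM in WT, against 0.300, 0.495, 0.482, 0.581 and 0.695 CPM in Jak1KO libraries (-3.82 ± 0.23, edgeR adjusted p = 1.85e-12), and Raet1d fell by 0.93 ± 0.16 (edgeR adjusted p = 0.000134).

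Macrophage genes moved in both directions. Of 35 tested, 6 fell and 5 rose, beside 12.0% and 8.06% of all genes. The number called ranged from 8 to 18 over the alternatives. The list sum was 4852 to 9403 CPM in WT, against 4496 to 6732 CPM in Jak1KO libraries. Nos2, the inducible nitric oxide synthase of macrophages exposed to interferon gamma, was at 327, 286, 243, 154 and 321 CPM in WT, against 56.6, 17.3, 13.0, 13.9 and 42.6 CPM in Jak1KO libraries (-3.21 ± 0.47, edgeR adjusted p = 1.04e-05). The scavenger receptor Msr1 fell by 0.79 ± 0.17 (edgeR adjusted p = 0.00105). In the other direction, Mertk, which takes up dead cells, rose by 0.63 ± 0.12 (edgeR adjusted p = 0.000385), the mannose receptor Mrc1 (1.28 ± 0.32, edgeR adjusted p = 0.0041), and Fcrls, a gene of resident macrophages (2.23 ± 0.48, edgeR adjusted p = 0.00112). The general marker Adgre1 was at 157 ± 48.5 and 159 ± 19.2 CPM (0.01 ± 0.23, edgeR adjusted p = 0.978). Csf1r, the receptor of the macrophage growth factor, fell by 0.75 ± 0.24 (edgeR adjusted p = 0.0255), a call that was lost without any 1 of 5 libraries (Jak1KO replicates 2, 3 or 4, WT replicates 2 or 5; adjusted p 0.0506 to 0.1).

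Neutrophil genes fell in 8 of 14 cases (median -1.56), with list sums of 212 to 368 CPM in WT, against 209 to 311 CPM in Jak1KO libraries. Only 14 of the 28 listed genes passed the filter on low counts, and Ly6g, Cxcr2, Retnlg, Elane and Mpo did not. The innate receptors Trem1 (-1.89 ± 0.28, edgeR adjusted p = 1.18e-05) and Clec4e (-1.60 ± 0.31, edgeR adjusted p = 0.000355) and the decoy receptor Il1r2 (-1.91 ± 0.38, edgeR adjusted p = 0.00045) fell, genes that macrophages can express too. Of the dendritic cell list 6 of 21 fell and 1 rose. The list as a whole did not lean to lower levels, with a median of 0.008, 10 negative differences and 11 positive. Itgax, an integrin of dendritic cells and macrophages, fell by 2.76 ± 0.31 (edgeR adjusted p = 1.34e-07), and Clec9a, which marks cross-presenting dendritic cells (-1.78 ± 0.39, edgeR adjusted p = 0.00122). Among 26 chemokines 6 fell and 2 rose, and beside Cxcl10 and Ccl5 the interferon-induced Cxcl11 fell by 2.14 ± 0.47 (edgeR adjusted p = 0.00154). Cxcl9, a further T cell chemokine, was lower with an adjusted p of 0.0456 and lost its call when any of several libraries was left out or the 2 groups were fitted alone (adjusted p = 0.0725).

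Cell death and inflammation genes leaned the same way. Of 24 caspase and pyroptosis genes 14 fell and 0 rose (median -0.60), including Mlkl, the effector of necroptosis (-0.63 ± 0.08, edgeR adjusted p = 2.53e-06), and the pore former Gsdmd (-0.56 ± 0.12, edgeR adjusted p = 0.00112). Of 21 NF-kB and acute inflammation genes 13 fell and 0 rose, led by the apoptosis inhibitor Birc3 (-0.69 ± 0.10, edgeR adjusted p = 4.86e-06) and by Il18bp, which binds interleukin-18 (-1.91 ± 0.36, edgeR adjusted p = 0.000267). Of 25 complement genes 7 fell and 2 rose, and 5 were called in all without Jak1KO replicate 2 or without Jak1KO replicate 3. C3, the central component, fell by 0.97 ± 0.31 (edgeR adjusted p = 0.024). The call was lost without WT replicate 2 (adjusted p = 0.135), without Jak1KO replicates 2, 3 or 4 in turn (adjusted p 0.056 to 0.0762) and with the 2 groups fitted alone (0.0509).

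Genes of elastic fibres and the basement membrane gene Lama2 were among the largest rises. Of 31 tested matrix glycoprotein and elastic fibre genes, 6 rose and 4 fell, and over the alternatives 9 to 18 were called. Eln, the elastin gene, was at 2.43, 11.1, 5.16, 7.30 and 2.20 CPM in WT, against 68.9, 75.0, 248, 205 and 68.6 CPM in Jak1KO libraries. All Jak1KO libraries lay above all WT libraries, as for 10.4% of all genes, with replicates 3 and 4 far above the other 3. The rise was 4.56 ± 0.65 (edgeR adjusted p = 7.75e-06). A pair of microfibril genes rose as well, Mfap4, at 4.63, 13.1, 8.65, 12.6 and 8.03 CPM against 97.4, 142, 205, 232 and 177 CPM (4.18 ± 0.38, edgeR adjusted p = 3.76e-09), and Mfap2 (3.78 ± 0.56, edgeR adjusted p = 1.35e-05). Lama2, a laminin chain of basement membranes, rose by 4.62 ± 0.62 (edgeR adjusted p = 3.02e-06) and Fbln5, which assembles elastic fibres (2.06 ± 0.31, edgeR adjusted p = 1.33e-05). The collagen-binding proteoglycan Lum rose by 2.57 ± 0.41 (edgeR adjusted p = 3.28e-05).

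Some other matrix genes fell, among them the basement membrane gene Nid1. Fbln2, a relative of Fbln5, went from 94.8 ± 32.9 CPM in WT to 11.1 ± 7.75 CPM in Jak1KO tumours (-3.08 ± 0.47, edgeR adjusted p = 1.68e-05). Nid1, which links laminin and collagen IV, fell by 1.24 ± 0.22 (edgeR adjusted p = 0.00017), and the transforming growth factor target Tgfbi (-1.39 ± 0.22, edgeR adjusted p = 2.91e-05). Of 32 collagens and crosslinking enzymes 4 fell and 0 rose, with a list median of -0.10. That is near the share of all genes that fell, 12.0%. Among the 4 were Loxl4 (-0.81 ± 0.19, edgeR adjusted p = 0.00216) and Col18a1 (-0.64 ± 0.18, edgeR adjusted p = 0.0102). The count of 4 was 2 without any 1 of Jak1KO replicates 2, 3, 4 or 5. Col1a1, the main fibrillar collagen, was at 273 and 420.1 CPM (0.62 ± 0.41, edgeR adjusted p = 0.313) and was called higher when the 2 groups were fitted alone (adjusted p = 0.0385), and Fn1, fibronectin, differed by -0.25 ± 0.36 (edgeR adjusted p = 0.699).

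The rises in elastic fibre genes were set beside markers of stroma. Of 33 fibroblast and perivascular genes 10 rose and 2 fell, the rises including Mfap4 and Lum, and the list sum was 2724 to 3603 CPM in WT, against 3128 to 3747 CPM in Jak1KO libraries. Of 25 endothelial genes 0 rose and 2 fell, beside 8.06% and 12.0% of all genes. Skeletal muscle genes were uneven between libraries of both groups, with sums of 36.6, 848, 36.0, 184 and 62.7 CPM in WT, against 1662, 34.4, 143, 93.3 and 91.8 CPM in Jak1KO libraries, and 0 of 25 were called. The part of stromal and muscle cells in the rises was not tested.

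**Figure D4:**
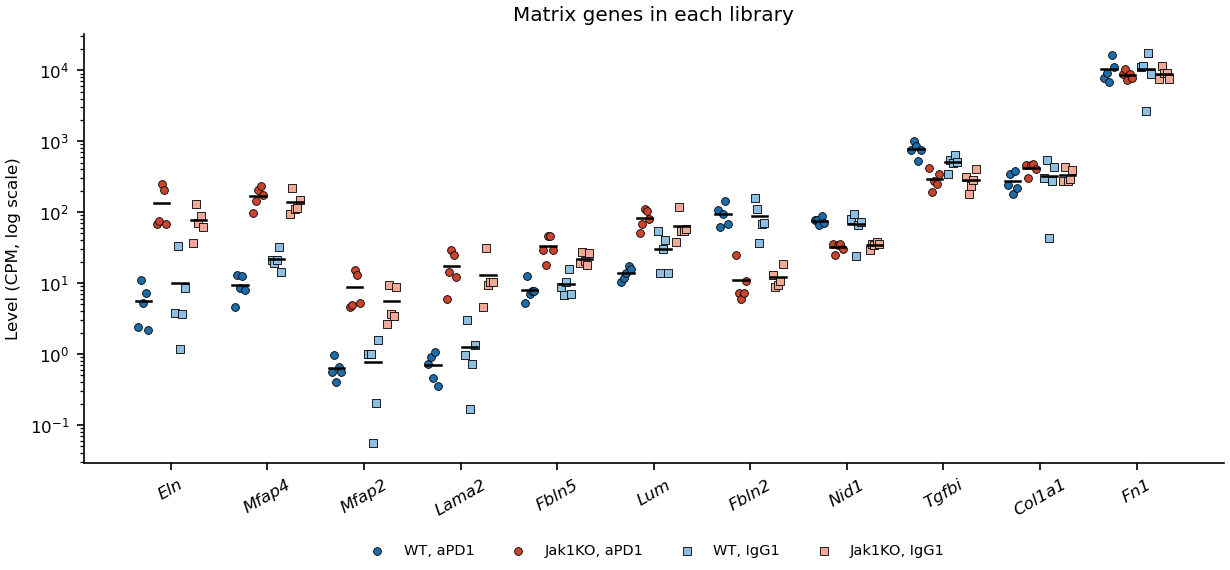
Level in CPM on a log axis of 11 matrix genes in each library, circles under aPD1 and squares under IgG1, with bars at the group means. Eln, Mfap4, Mfap2, Lama2, Fbln5 and Lum are higher in every Jak1KO aPD1 library than in any WT aPD1 library, and Fbln2, Nid1 and Tgfbi are lower in every one.

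The title of the series concerns proteases, and in 3 of the 4 protease lists more members fell than rose. Over all genes tested more fell than rose too, 12.0% against 8.06%. Of 24 ADAM and ADAMTS genes 6 fell and 2 rose. Adamts8 was at 6.96 to 8.87 CPM in WT, against 0.678 to 1.18 CPM in Jak1KO libraries (-3.03 ± 0.25, edgeR adjusted p = 6.37e-10), and Adam8, a protease of leukocytes and tumour cells, fell by 1.30 ± 0.20 (edgeR adjusted p = 3e-05). Adamts1, which cleaves proteoglycans, rose by 1.44 ± 0.22 (edgeR adjusted p = 1.6e-05). Of 20 matrix metalloproteinases and inhibitors 8 fell and 1 rose. Mmp28 (-2.98 ± 0.34, edgeR adjusted p = 2.03e-07), the collagenase Mmp13 (-2.27 ± 0.52, edgeR adjusted p = 0.00203) and the inhibitor Timp3 (-1.58 ± 0.33, edgeR adjusted p = 0.000758) fell, and the membrane-bound Mmp16 rose by 0.78 ± 0.16 (edgeR adjusted p = 0.000569). Of 19 cathepsins 7 fell and 0 rose, including Ctsc, which activates granzymes (-1.10 ± 0.26, edgeR adjusted p = 0.00277), Ctsz (-0.40 ± 0.10, edgeR adjusted p = 0.00456) and Ctss, which trims the invariant chain (-1.20 ± 0.31, edgeR adjusted p = 0.00585). The count of cathepsins was 4 without WT replicate 3 or Jak1KO replicate 3 and 3 without Jak1KO replicate 4. Of 47 plasminogen system and serine protease genes 7 rose and 5 fell, with Prss23 higher (1.08 ± 0.14, edgeR adjusted p = 1.36e-06) and Plat, the tissue plasminogen activator, lower (-0.62 ± 0.16, edgeR adjusted p = 0.00461). The count of 12 called there was 7 without WT replicate 3.

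Among the 10 largest rises of called genes that reached 5 CPM in one group and did not overlap were Hpse2, Lama2, Eln, Mfap4, Mfap2, Cbr2, Pnma5, Map2 and Peg3. Hpse2, a relative of heparanase, had 2 counts in the 5 WT libraries together and 1520 in the 5 Jak1KO libraries, where it was at 13.9 ± 2.70 CPM. The ratio of the 2 rates was 765 (95% exact interval 212 to 6326, counting error only). Under IgG1 it had 3 and 1408 counts, and in B2mKO aPD1 tumours it was at 6.58 ± 1.05 CPM, so that of the 3 lines it was near 0 in WT alone. Map2, a microtubule protein of neurons, rose by 2.71 ± 0.24 (edgeR adjusted p = 3.07e-09) and the imprinted Peg3 (2.59 ± 0.41, edgeR adjusted p = 3.77e-05).

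The 10 largest falls were Strc, Apol6, Krt16, Tex13b, Glrb, Gbp10, Aif1l, Tgtp1, Prl2c2 and Tnfrsf26. Strc, a gene known from the inner ear, had 1603 counts in the 5 WT libraries and 1 in the 5 Jak1KO libraries. The ratio was 1592 (95% exact interval 285 to 62903, counting error only), and under IgG1 the counts were 1231 and 1. Krt16, a keratin of stressed skin, fell by 5.05 ± 0.58 (edgeR adjusted p = 2.75e-07) and Glrb, a glycine receptor subunit (-4.88 ± 0.38, edgeR adjusted p = 2.6e-10). Tnfrsf26, of the tumour necrosis factor receptor family, fell by 4.03 ± 0.28 (edgeR adjusted p = 5.04e-11). It was at 1.79 ± 0.671 CPM in B2mKO aPD1 tumours, against 19.5 ± 3.14 CPM in WT. Gbp10 and Tgtp1 are on the interferon lists, and the other 8 are not.

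Growth factor and receptor genes moved in both directions, with 11 of 37 lower and 8 higher. Fgf7, a growth factor for epithelium, was at 39.6, 46.2, 46.8, 50.9 and 43.5 CPM in WT, against 152, 122, 141, 149 and 129 CPM in Jak1KO libraries (1.61 ± 0.11, edgeR adjusted p = 3.58e-11), and Fgfr2, which holds its receptor isoform, rose by 2.07 ± 0.26 (edgeR adjusted p = 8.2e-07). Fgf18 (-4.35 ± 0.58, edgeR adjusted p = 2.73e-06) and Fgfr3 (-0.98 ± 0.15, edgeR adjusted p = 2.54e-05) fell. Of 31 Wnt pathway genes 5 fell and 2 rose, close to the shares of all genes, 12.0% lower and 8.06% higher. Among those lower were Fzd1 (-1.47 ± 0.19, edgeR adjusted p = 2.25e-06) and Wnt6 (-2.46 ± 0.40, edgeR adjusted p = 4.04e-05). Both cadherins with the smallest p on the epithelial and mesenchymal list fell, Cdh1 (-2.06 ± 0.31, edgeR adjusted p = 1.43e-05) and Cdh11 (-2.88 ± 0.53, edgeR adjusted p = 0.000236).

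On the list of p53 targets and cyclin-dependent kinase inhibitors, 6 of 23 fell and 3 rose. The death receptor Tnfrsf10b (-0.77 ± 0.09, edgeR adjusted p = 2.03e-07), Phlda3 (-0.88 ± 0.12, edgeR adjusted p = 4.92e-06), the death receptor Fas (-1.91 ± 0.28, edgeR adjusted p = 9.87e-06), Mdm2, the ligase that degrades p53 (-0.69 ± 0.12, edgeR adjusted p = 9.73e-05), and the cell cycle inhibitor Cdkn1a (-1.01 ± 0.18, edgeR adjusted p = 0.000179) fell. Trp53 itself was higher (0.34 ± 0.10, edgeR adjusted p = 0.0182), a call lost without Jak1KO replicate 4 (adjusted p = 0.0564) and with no filter on low counts (0.0652). Of 30 mitotic genes 3 rose and 1 fell and of 32 replication genes 0 rose and 2 fell. Over all genes tested 8.06% rose and 12.0% fell. Among 34 genes of the unfolded protein and integrated stress responses 9 fell and 1 rose, including Edem1, which helps remove misfolded proteins (-0.66 ± 0.07, edgeR adjusted p = 5.62e-08), while the factor Atf5 rose by 0.55 ± 0.11 (edgeR adjusted p = 0.000564). Over the alternatives tried, 3 to 13 of the mitotic genes, 2 to 12 of the replication genes and 6 to 21 of the stress genes were called.

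The same lines under IgG1 give a comparison with no library in common. There 2773 genes were called, 17.9% of those tested, 1699 lower in Jak1KO (11.0%) and 1074 higher (6.93%). With the IgG1 groups fitted alone the count was 1611, and the shared calls given next rest on the fit over all libraries. Called in both arms in the same direction were 1638 genes, 52.7% of the aPD1 calls and 59.1% of the IgG1 calls, and 3 were called in opposite directions (C3, Slc43a2 and Slco3a1). Like that of C3, the aPD1 calls of Slc43a2 and Slco3a1 were lost under several alternatives (adjusted p 0.0512 to 0.148 and 0.0503 to 0.156), among them leaving out WT replicates 1, 2 or 5 or Jak1KO replicates 2, 3 or 4. Of the 1856 genes lower under aPD1, 1670 also had a negative difference under IgG1, with a median of -0.50 there against -0.86 under aPD1. The genes were chosen by their aPD1 call, which favours a smaller median under IgG1, so the 2 medians do not show a weaker effect there. Type I interferon-stimulated genes were lower in 35 of 37 cases under IgG1 and the GTPases in 10 of 10, so these differences were present without PD-1 blockade. Ifit1 differed by -2.96 ± 0.23 (edgeR adjusted p = 2.83e-10) and Jak1 (-1.70 ± 0.10, edgeR adjusted p = 2.5e-12).

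Mean levels in the 4 groups are given for Gbp7, Cd274 and Tap1. Gbp7 and Cd274 were among the genes with the smallest p in the test of the difference between the arms. A genotype difference that varies between the arms was thus bound to appear in them. Their means do not show where differences between the arms lay in other genes. Gbp7 averaged 140.2 CPM in WT IgG1 and 315 in WT aPD1 tumours, but 43.8 in Jak1KO IgG1 and 41.1 in Jak1KO aPD1 tumours. Cd274 averaged 37.6 and 146 CPM in WT tumours under IgG1 and aPD1, and 26.2 and 28.5 in Jak1KO tumours. Tap1 averaged 203 and 395 CPM in WT, and 106 and 107 in Jak1KO tumours. In these genes the Jak1KO means stayed near each other while the WT mean under aPD1 was higher. The test of the difference between the arms passed for 0 genes with edgeR (1249 at an unadjusted p under 0.05, 8.06% of those tested), 0 with limma voom and 51 with DESeq2.

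Among the 10 genes with the smallest p in that test were Gbp7, Gpr132, Tent5c, Cd274, Ttc39b, Pdcd1lg2, Tnfrsf14, Irgm1 and C3, all with a more negative genotype difference under aPD1 than under IgG1. For Cd274 the difference of differences was -1.84 ± 0.40 (edgeR adjusted p = 0.199) and for Gbp7 -1.26 ± 0.26 (edgeR adjusted p = 0.199). Leaving out WT aPD1 replicate 4, the WT library with the lowest sums of GBPs and immunity-related GTPases but not of type I interferon-stimulated genes, raised the count from 0 to 110, of which 104 were more negative under aPD1. Of the 110, 8 were on the lists of interferon gamma targets, GBPs and immunity-related GTPases. These lists had 33, 11 and 10 tested members in the main fit. The list of type I interferon-stimulated genes, with 37, had 0. As only 110 of 15668 genes tested passed in that fit, a count of 0 does not set the type I list apart. For MHC class II, called in 11 of 11 under aPD1 and 0 of 11 under IgG1, the difference between the arms did not pass (Cd74, -2.85 ± 1.01, edgeR adjusted p = 0.384). T cell genes were higher in Jak1KO tumours in 8 of 27 cases under IgG1 (median 1.43), and there too the difference between the arms did not pass (Icos, -2.20 ± 0.79, edgeR adjusted p = 0.393).

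B2mKO tumours carry loss-of-function mutations in the light chain that MHC class I needs to reach the cell surface, and their Jak1 is not labelled as mutated. Against them, 4361 genes were called in Jak1KO tumours, 28.1% of those tested, 2299 lower (14.8%) and 2062 higher (13.3%). This comparison shares the Jak1KO libraries with the main one, and its values are given beside it. Type I interferon-stimulated genes were lower than in B2mKO tumours in 37 of 37 cases, the GTPases in 10 of 10 and the GBPs in 9 of 11, with 1 higher, Gbp2b (4.33 ± 1.24, edgeR adjusted p = 0.00938), which was at 35.6 CPM in Jak1KO replicate 1 and at most 5.65 CPM in the other 4. Ifit1 differed by -2.98 ± 0.23 (edgeR adjusted p = 1.46e-10) and Gbp7 (-2.02 ± 0.19, edgeR adjusted p = 7.47e-09). MHC class II was called in 0 of 11, with Cd74 at 167 CPM in B2mKO and 371 in Jak1KO tumours against 2177 in WT tumours. Ido1 (-0.11 ± 0.76, edgeR adjusted p = 0.929) and Cd274 (-0.56 ± 0.28, edgeR adjusted p = 0.144) were not called against B2mKO, which does not show that they are alike. B2m was higher in Jak1KO than in B2mKO tumours (0.74 ± 0.19, edgeR adjusted p = 0.0033).

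Differences also followed chromosomes. On chromosome 3 the median log2 fold change was -0.16 under aPD1 and -0.20 under IgG1, and 149 of 791 tested genes were lower in Jak1KO and 28 higher. Chromosomes 6 (median -0.11, 142 lower and 22 higher of 813), 8 (-0.09, 118 and 19 of 813) and 4 (-0.08, 180 and 48 of 918) leaned the same way. Chromosomes 19 (0.14, 47 lower and 83 higher of 529) and 16 (0.12, 42 and 70 of 475) leaned to higher levels. Under IgG1, in other libraries, these medians had the same signs. Against B2mKO tumours under aPD1, the medians of chromosomes 3, 6 and 4 were -0.25, -0.27 and -0.17. Chromosome 8 did not lean lower in that comparison, with a median of 0.06, and chromosomes 19 and 16 had medians of 0.28 and 0.06. With genes of the immune-cell and interferon-target lists left out the median of chromosome 3 was -0.16 and that of chromosome 4 -0.07.

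In bins of about 60 neighbouring tested genes, the lowest bin was on chromosome 4 from 41638144 to 46991873 (GRCm38), away from Jak1 on the same chromosome. There 35 of 62 genes were lower and 1 was higher, with a median of -0.46 under aPD1, -0.54 under IgG1 and -0.51 against B2mKO. The lowest bin of chromosome 3, from 5218526 to 30897192, had a median of -0.27 and 23 of 61 genes lower. These shifts are small beside the falls of interferon-response genes, and single genes on those chromosomes with differences of this size cannot be told apart from the shift of their neighbours.

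**Figure D5:**
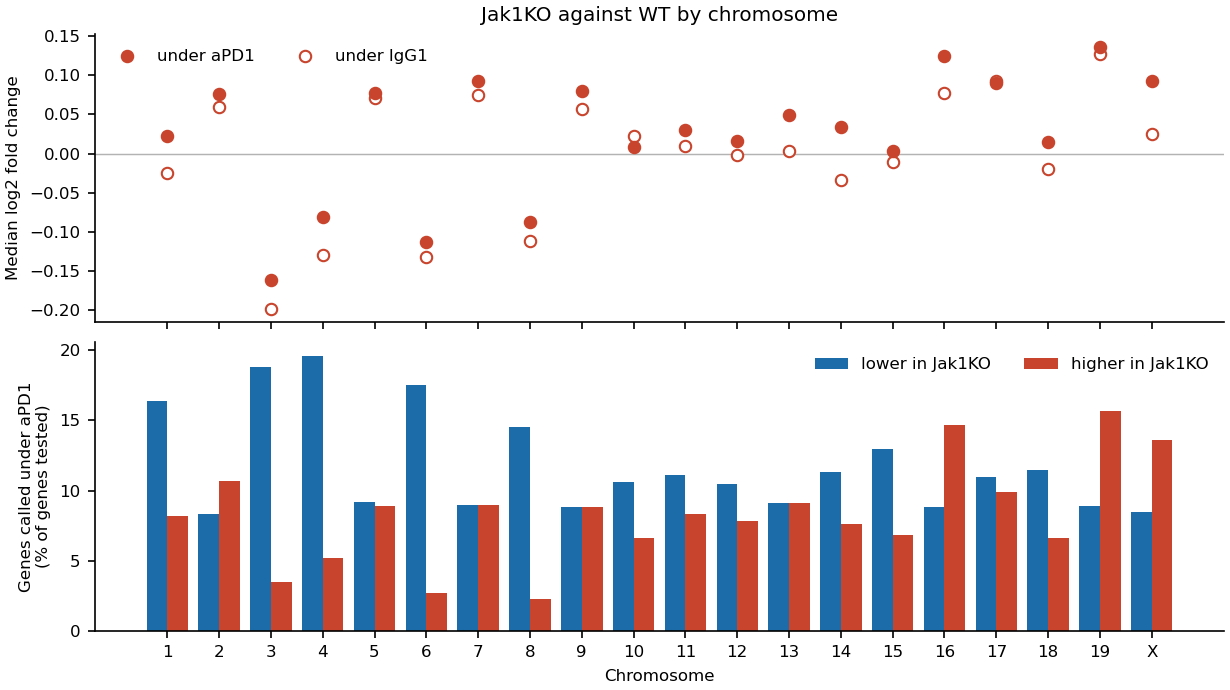
Jak1KO against WT by chromosome. The upper panel shows the median log2 fold change of tested genes under aPD1 (filled) and IgG1 (open), and the lower panel the percent of tested genes called lower and higher under aPD1. Chromosomes 3, 4, 6 and 8 have medians below 0 in both arms, and chromosome 19 has the highest median in both.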

How the data were processed

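RNA of bulk MC38 tumours was sequenced in 30 libraries, 6 groups of 5, of which the 5 Jak1KO aPD1 and 5 WT aPD1 libraries are compared here. The authors deposited raw read counts per gene for 55471 genes, made with featureCounts 2.0.0 on Ensembl 99 (GRCm38), without strand and without reads that align to several places, per the file headers. STAR 2.5.2a, FastQC 0.11.2, Cufflinks 2.2.1 and edgeR 3.24.3 are named in the submitters' processing notes. The header of WT aPD1 replicate 2 names an alignment file of another name, and the 30 per-sample files equal the series table. Gene symbols came from a reference table, which left 327 IDs without one (0.047% of counts).

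Counts were tested with edgeR 4.0.16 (R 4.3.3): filterByExpr with a minimum count of 10 and total of 15, TMM scaling, 1 fit over all 30 libraries with 6 group means, the quasi-likelihood test, and Benjamini-Hochberg adjustment over 15505 genes at 0.05. The SE is the log2 fold change divided by the root of F. The fit was tested on simulated data. Intervals for counts at 95% cover counting error only. Alternatives were other scalings, DESeq2 1.42.0, limma voom (3.58.1), other filters, the 2 groups alone, a replicate block and leaving out libraries.

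Members and gene lists were chosen with earlier results of these data known. Named were Jak1 and B2m, the 10 largest rises and falls with at least 5 CPM and no overlap, up to 4 members with the smallest p of each of 56 lists with others named by role, genes with at most 3 counts in 1 group, and the 10 with the smallest p between the arms. Some genes that the rule names are not reported here.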

Additional observations from a re-analysis of the deposited data

Results flagged for a closer look

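Of 314 sets of 5 library values of the named genes under aPD1, 21 held a library far from the other 4 by Dixon's criterion, and chance gives about 1 in 20. In 10 of the 21 the library was WT aPD1 replicate 4.

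WT aPD1 replicate 4 was the lowest of its group for Il15ra (24.6 CPM, others 35.5 to 37.5), Gbp4 (251 CPM, others 477 to 563), H2-Q7 (393 CPM, others 555 to 604), H2-K1 (1794 CPM, others 2811 to 3022) and Psmb9 (84.8 CPM, others 151 to 174). It was also the lowest for the protease inhibitor Spint1 (10.7 CPM, others 22.0 to 24.4) and for Edem1 (177 CPM, others 208 to 216). The same library was the highest for Mrc1 (76.8 CPM, others 27.7 to 38.8), Fcrls (46.0 CPM, others 8.93 to 15.4) and the collagen crosslinking enzyme Lox (333 CPM, others 127 to 152).

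In the Jak1KO aPD1 group, replicate 1 was the highest for Clec9a (4.07 CPM, others 1.36 to 1.83), Fbln2 (24.7 CPM, others 5.87 to 10.6), Apol6 (1.33 CPM, others 0 to 0.347), Cdh11 (3.94 CPM, others 0.989 to 1.62) and Gbp2b (35.6 CPM, others 0.145 to 5.65). Replicate 4 was the lowest for Ifnar1 (98.8 CPM, others 104 to 105), Casp4 (15.8 CPM, others 23.3 to 25.1) and Tent5c (7.17 CPM, others 9.42 to 10.2). Replicate 2 was the highest for Strc (0.0495 CPM, which is 1 count, others 0) and Glrb (0.445 CPM, others 0.128 to 0.145), and replicate 5 for Il15 (5.17 CPM, others 3.76 to 4.02).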

How the results depend on the processing

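The count of genes called under aPD1 (3106) was 4752 with the 2 groups fitted alone, 5178 without both libraries that stand apart, 2970 with a replicate block, and 2343 to 3186 when 1 library was left out. Same-numbered samples share only a number: the correlations of their deviations were -0.497 to 0.477 under aPD1. Under IgG1 the count (2773) was 1611 with the groups fitted alone and 2183 to 2953 when 1 library was left out. The count for the difference between the arms (0) was 51 with DESeq2 and 0 to 110 when 1 library was left out. Against B2mKO it was 3636 to 4566. With a stricter response element (GAAAC, any base, GAAA), 2.9% of genes called lower, 0.7% of those higher and 0.9% of all held it. Of 143 called genes among those named, 129 kept call and direction under all 10 fits that left out a library and 9 other alternatives, and 14 lost the call under some. No direction changed among them.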
